A study of Ovis aries with 9 samples.

Results

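The 8 genes described here encode enzymes of the hexosamine pathway and of the O-GlcNAc modification in sheep granulosa cells (GCs), which line the ovarian follicle, nourish the oocyte and make steroids. They were taken by gene symbol from a table of 39157 genes, each symbol had 1 row, and all 8 passed the filter on low values that left 24365 genes for testing. The cells came from pooled follicles of young ewes of the thin-tailed Han breed, so the libraries do not stand for single animals. All cultures grew for 48 h and then spent 8 h in medium free of glucose and serum, so the control was starved as well. For a further 24 h they received no glucose (CON), 8.4 mM glucose (LOW) or 33.6 mM glucose (HIGH), with 3 libraries in each group. Nothing states that the 3 libraries of a group came from separate cell isolations, so p-values measure the spread between these libraries, which may be technical.

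The hexosamine pathway branches off glycolysis at fructose-6-phosphate and ends in UDP-GlcNAc, the sugar donor for N-glycans, hyaluronan and other glycans and for O-GlcNAc, a single sugar placed on nuclear and cytosolic proteins. Because its synthesis draws on glucose, glutamine, acetyl-CoA and a nucleotide, the pathway is often described as a nutrient sensor. In the ovary UDP-GlcNAc is also a building block of the hyaluronan matrix that granulosa-derived cells lay down around the oocyte. GFPT1 and GFPT2 catalyse the entry step, GNPNAT1, PGM3 and UAP1 the following steps, OGT attaches O-GlcNAc, NAGK recycles free GlcNAc, and GNE leads UDP-GlcNAc into sialic acid.

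Levels are given as FPKM, a count of fragments set relative to gene length and to the size of the library, after each library was divided by a factor between 0.937 and 1.11 that brought the median of commonly expressed genes to 1 value. The deposited tables were taken to hold no independent counts, so the depth behind each level is unknown. The labels of cultures with and without glucose were checked with TXNIP, a thioredoxin-binding protein whose gene responds to glucose. Its FPKM was 68.5, 88.7 and 105 in CON, 213, 226 and 233 in LOW and 179, 204 and 216 in HIGH. LOW and HIGH overlapped, with a log2 fold change of -0.17 in HIGH versus LOW (SE 0.17), so TXNIP does not check LOW against HIGH. Every glucose library lay above every CON library, and the log2 fold change of glucose (the mean of LOW and HIGH) against CON was 1.29 (SE 0.15, limma adjusted p = 0.0359). Its call was lost in 8 of the 9 fits that left out 1 library, with adjusted p-values up to 0.22, while the log2 fold change stayed between 1.13 and 1.44. With LOW or HIGH alone set against CON, the log2 fold changes of TXNIP were 1.38 and 1.21. It was called in neither (limma adjusted p = 0.118 and 0.171).

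The libraries also differed in a way that did not follow the groups alone. In each library the median log2 deviation of the 2853 tested genes with the shortest genomic span (up to 4979.4 bases) was compared with that of the 2853 genes with the longest span (from 74429.8 bases). The difference between short and long genes was -0.30, 0.07 and 0.57 in CON replicates 1, 2 and 3, -0.03, 0.14 and 0.08 in LOW, and -0.35, -0.18 and 0.09 in HIGH. CON replicate 3 and HIGH replicate 1 stood at the ends, the CON group alone covered nearly the whole range, and the LOW libraries lay close together. Since several of the 8 genes moved with this balance, it is given beside their values.

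The cells carried the label granulosa cells. Of 14 granulosa markers 10 were found by symbol, and 9 of these were above an FPKM of 1 in every library, among them CYP11A1, which starts steroid synthesis, at 141 to 203. FSHR, the receptor for follicle-stimulating hormone, was at 0.23 to 0.58. All 10 stromal and smooth muscle markers were above 1 in every library, LUM, a matrix proteoglycan, at 1755 to 2295, whereas 4 of 5 endothelial markers stayed below 0.1 and CDH5, PECAM1 and VWF were at or near 0. The summed FPKM of the stromal list ran from 4794 to 6922 in CON, with LOW at 5571 to 6024 and HIGH at 4671 to 6146. That of the granulosa list ran from 388 to 409 in CON, with LOW at 370.3 to 384 and HIGH at 350.1 to 369. The granulosa sums in HIGH thus lay below those in CON and LOW. CYP11A1 and CDH2, a cadherin, had the highest levels of this list. In CON, LOW and HIGH the means were 180, 163 and 143 for CYP11A1 and 142, 142 and 154 for CDH2. The lower sum in HIGH therefore rests largely on CYP11A1 and does not hold for every marker. Its part in the values below was not tested. In bulk RNA fewer cells of a type and less RNA per cell cannot be told apart.

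Across the 9 libraries OGT had the highest level, with a mean FPKM of 72.2 ± 6.35 (SD, n = 9). GFPT2 followed at 43.6 ± 9.75 and GFPT1 at 42.9 ± 3.28, and the ranges of these 3 genes overlapped from each to the next. UAP1 (10.8 ± 0.93), PGM3 (9.94 ± 2.71) and GNE (8.06 ± 1.09) formed a lower tier whose ranges overlapped in the same way. By mean GNPNAT1 was lower still at 4.92 ± 0.42, and NAGK was lowest at 2.25 ± 0.80. The ranges of GNE, GNPNAT1 and NAGK did not overlap in that order. PGM3 in CON replicate 3, at 5.14, was however below GNPNAT1 in LOW replicate 3, at 5.61. The annotated transcript GNPNAT1-201 alone, highest at 2.83 in CON replicate 3, lay inside the range of NAGK, 1.14 to 4.13. The gap between GNPNAT1 and NAGK thus rests on assembled transcripts counted in the row of GNPNAT1. FPKM divides by gene length, and these are comparisons of levels, not of differences between groups.

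**Figure D1:**
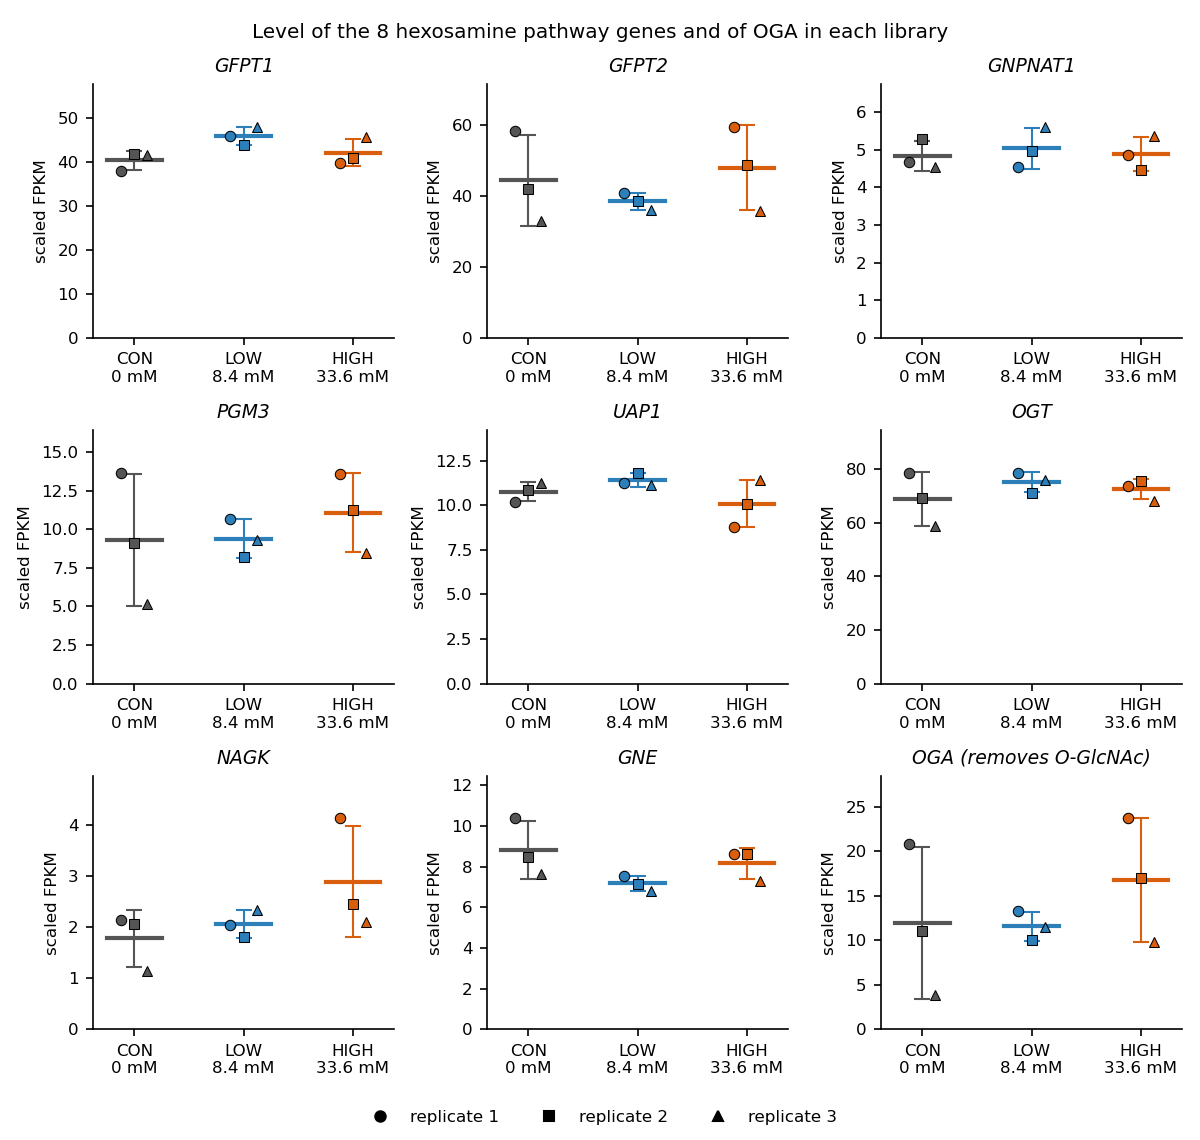
Scaled FPKM (y axis, starting at 0) of the 8 genes and of OGA in the CON (0 mM glucose), LOW (8.4 mM) and HIGH (33.6 mM) groups (x axis). Points are single libraries with the replicate number as shape, wide lines are group means and error bars are SD (n = 3); GFPT1 in LOW lies above GFPT1 in CON, while PGM3, GFPT2, NAGK and OGA spread widely within CON and HIGH.

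The first comparison asks which of these genes responded to the supply of 8.4 mM glucose. With limma and Benjamini-Hochberg adjustment, 0 of 8 genes passed an adjusted p under 0.05 with an absolute log2 fold change above 1 in LOW versus CON, where 0.00821% of all tested genes did. At an unadjusted p under 0.05 the count was also 0 of 8, against 1.83% of all genes. In 2 of 8 the groups did not overlap, GFPT1 higher and GNE lower in LOW, against 6.08% of all tested genes. The median log2 fold change of the 8 genes was 0.10, beside 0.01 over all genes tested.

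HIGH versus CON compared no glucose with the higher dose. Both doses lay above the normal follicular range that the study gives. In this contrast 0 of 8 genes passed the call (0.00821% of all genes did), 0 of 8 had an unadjusted p under 0.05 (6.74%) and in 0 of 8 the groups were separate (9.38%). The median log2 fold change was 0.07 and that of all genes 0.07. In HIGH versus LOW the counts were again 0 of 8 for the call (0.00821%), 0 of 8 at an unadjusted p under 0.05 (7.63%) and 0 of 8 for separate groups (18.9%). With both glucose groups set against CON they were 0 of 8 (0.0246%), 0 of 8 (2.65%) and 0 of 8 (1.41%). The smallest adjusted p of a member was 1 in LOW versus CON, 0.65 in HIGH versus CON, 0.654 in HIGH versus LOW and 0.937 for glucose versus CON. These contrasts share libraries and are not independent of each other.

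**Figure D2:**
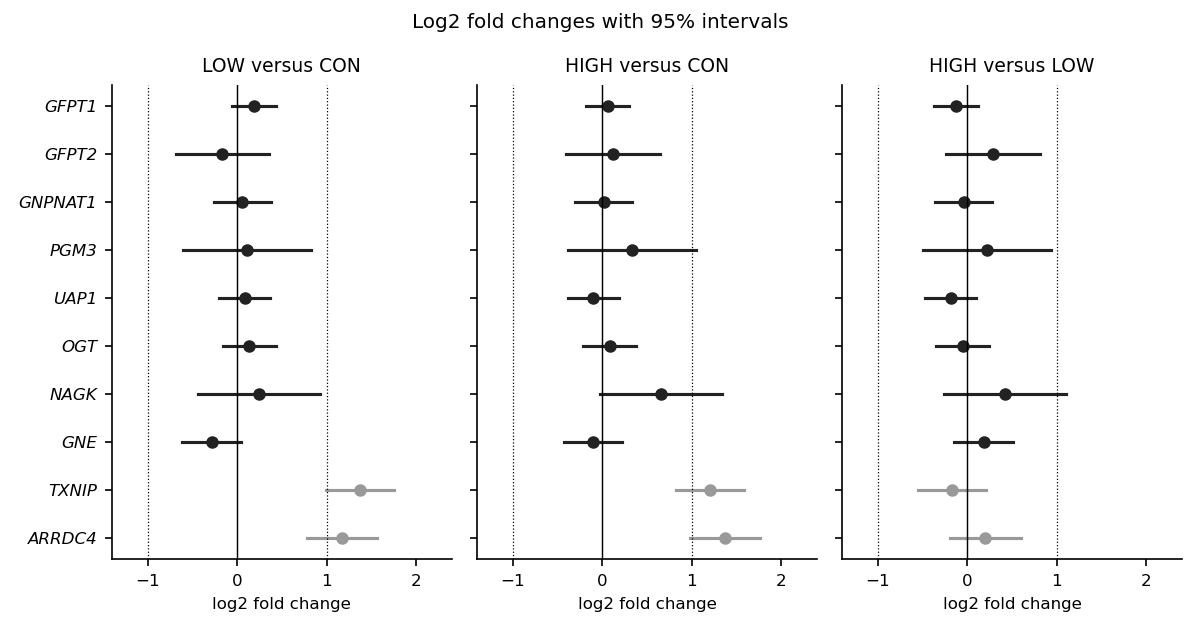
Log2 fold changes (x axis) of the 8 genes in black and of the glucose-responsive genes TXNIP and ARRDC4 in grey, with 95% intervals from the limma fit, in the 3 contrasts between groups of 3 libraries. The interval of each of the 8 genes includes 0 in every panel; dotted lines mark a log2 fold change of 1 in either direction.

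GFPT1 and GFPT2 encode the 2 forms of glutamine-fructose-6-phosphate amidotransferase, the enzyme that commits sugar to the pathway. GFPT1 (chromosome 3 from 38829991 to 38886613) had an FPKM of 38.0, 41.8 and 41.6 in CON, 46.0, 44.0 and 48.1 in LOW and 39.9, 40.9 and 45.7 in HIGH. The 3 LOW libraries were above all CON libraries, and the HIGH libraries overlapped both groups. Between LOW and CON the log2 fold change was 0.19 (SE 0.11, limma adjusted p = 1), a fold of 1.14 with a 95% interval from 0.961 to 1.35. In HIGH versus CON it was 0.06 (SE 0.11), with an interval of the fold from 0.88 to 1.23. The separation of LOW from CON rested on the scaling: in the FPKM as deposited the lowest LOW value, 42.1, was under the highest CON value, 42.6, and the log2 fold change was 0.08.

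GFPT1 was the steadiest of the entry enzymes. Its highest library exceeded its lowest by 1.27-fold, whereas the median over tested genes above 0 in every library was 2.30-fold. An annotated and an assembled transcript made up its level in the transcript table. Whether the assembled one is GFPT1 mRNA was not tested, so the level of the gene may include other RNA. GFPT1-201, the annotated form, carried 68.7% of the summed FPKM, and GFPT1-OT1, an assembled transcript on chromosome 3 from 38880040 to 38886613 at the end of the locus, carried 31.3%, with a share between 28.6% and 32.9% in single libraries. In LOW versus CON the former had a log2 fold change of 0.17 (SE 0.10) and the latter of 0.24 (SE 0.11), neither past the threshold (limma adjusted p = 1 over 38384 transcripts, of which 0.0234% were called).

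GFPT2 (chromosome 5 from 585027 to 629216) had an FPKM of 58.1, 42.0 and 32.9 in CON, 40.8, 38.7 and 35.9 in LOW and 59.5, 48.7 and 35.7 in HIGH. The CON and HIGH groups each ran from about the lowest to about the highest of the 9 values, and LOW lay inside them. Its log2 fold changes were -0.17 in LOW versus CON (SE 0.23), 0.12 in HIGH versus CON (SE 0.23) and 0.29 in HIGH versus LOW (SE 0.23, limma adjusted p = 0.673). The interval of the fold in HIGH versus LOW ran from 0.85 to 1.75. Leaving out CON replicate 3 turned the HIGH versus CON value to -0.08, and leaving out HIGH replicate 1 turned it to -0.05.

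The balance between both entry enzymes therefore shifted between libraries of 1 group. GFPT2 divided by GFPT1 was 1.53, 1.00 and 0.79 in CON, 0.89, 0.88 and 0.75 in LOW and 1.49, 1.19 and 0.78 in HIGH. In every group it was highest in the library with the most negative difference between short and long genes. Their summed FPKM, 74.5 to 99.4 over the 9 libraries, varied less than GFPT2 itself.

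GNPNAT1 acetylates glucosamine-6-phosphate, PGM3 isomerizes the product and UAP1 joins it to the nucleotide. GNPNAT1 had an FPKM of 4.68, 5.28 and 4.53 in CON, 4.53, 4.98 and 5.61 in LOW and 4.85, 4.46 and 5.36 in HIGH. The 3 groups overlapped, and the log2 fold changes were 0.06 in LOW and 0.02 in HIGH versus CON (SE 0.14 in both), with intervals of the fold from 0.833 to 1.3 and from 0.809 to 1.26. These values are uncertain because the row of GNPNAT1 counts assembled transcripts. The row (chromosome 7 from 11110383 to 11229951) also overlaps STYX, which lies from 11172868 to 11229504 and had a mean FPKM of 3.23. An assembled transcript spanning 11167149 to 11229951, across the STYX locus, was assigned to GNPNAT1 and carried 29.7% of its FPKM. The shorter assembled transcripts GNPNAT1-OT2 and GNPNAT1-OT1 carried 14.0% and 4.83%, and the annotated GNPNAT1-201 51.5%. Whether the assembled ones are GNPNAT1 mRNA was not tested. For GNPNAT1-201 alone the log2 fold changes were -0.08 in LOW and -0.17 in HIGH versus CON (SE 0.17).

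PGM3 (chromosome 8 from 10231626 to 10258911) was the gene of the middle steps that varied most. Its FPKM was 13.7, 9.14 and 5.14 in CON, 10.7, 8.21 and 9.31 in LOW and 13.6, 11.3 and 8.44 in HIGH. Within CON alone the highest library exceeded the lowest by 2.66-fold, more than any difference between group means, which were 9.32 ± 4.27, 9.40 ± 1.25 and 11.1 ± 2.57 (SD, n = 3). HIGH versus CON gave a log2 fold change of 0.33 (SE 0.32, limma adjusted p = 0.679), with an interval of the fold from 0.764 to 2.07. It became -0.04 without CON replicate 3, 0.66 without CON replicate 1 and 0.17 without HIGH replicate 1. A single transcript, PGM3-201, was listed.

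UAP1 (chromosome 1 from 112149499 to 112176392) had an FPKM of 10.2, 10.8 and 11.3 in CON, 11.3, 11.8 and 11.2 in LOW and 8.77, 10.1 and 11.4 in HIGH. HIGH replicate 1 was lowest, and the groups overlapped. Its log2 fold changes were 0.08 in LOW versus CON (SE 0.13), -0.10 in HIGH versus CON (SE 0.13) and -0.19 in HIGH versus LOW (SE 0.13, limma adjusted p = 0.654). The 3 intervals of the fold together lay between 0.722 and 1.29.

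OGT is the only enzyme known to attach O-GlcNAc to nuclear and cytosolic proteins, and OGA removes it. OGT (chromosome X from 60791568 to 60829876, with the single transcript OGT-201) had an FPKM of 78.7, 69.2 and 58.7 in CON, 78.8, 71.2 and 75.9 in LOW and 73.9, 75.7 and 68.2 in HIGH. Both glucose groups lay inside or at the edge of the CON range, and CON replicate 3 was lowest. Against CON the log2 fold change was 0.14 in LOW (SE 0.13, limma adjusted p = 1) and 0.09 in HIGH (SE 0.13, adjusted p = 0.787). The intervals of the fold reached from 0.897 to 1.35 and from 0.864 to 1.3, so a rise in OGT mRNA beyond 1.35-fold lay outside both.

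OGA, named here as the counterpart of OGT after its values were seen, was lower and far more variable. Its FPKM was 20.8, 11.1 and 3.83 in CON, 13.3, 10.0 and 11.5 in LOW and 23.7, 17.0 and 9.80 in HIGH. OGT divided by OGA was thus 3.78, 6.23 and 15.3 in CON, 5.92, 7.10 and 6.62 in LOW and 3.11, 4.45 and 6.96 in HIGH. The range within CON held all LOW and all but 1 of the HIGH ratios. The log2 fold change of OGA was 0.71 in HIGH versus CON (SE 0.53, limma adjusted p = 0.65), with an interval from -0.49 to 1.91.

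NAGK, the kinase that returns GlcNAc from degraded glycans to the pathway, had the largest log2 fold change of the 8 genes in HIGH versus CON, although it did not pass the test. Its FPKM (chromosome 3 from 92999942 to 93009718) was 2.14, 2.07 and 1.14 in CON, 2.05, 1.80 and 2.34 in LOW and 4.13, 2.45 and 2.10 in HIGH. HIGH replicate 1 was far above the others, CON replicate 3 was lowest, and the lowest HIGH library, at 2.10, was below the highest CON library. This log2 fold change was 0.66 (SE 0.30, limma adjusted p = 0.65), a fold of 1.58 with an interval from 0.983 to 2.53. Leaving out either HIGH replicate 1 or CON replicate 3 lowered it to 0.38. NAGK-201 carried 83.1% of the summed FPKM and an assembled transcript 16.9%, but the latter took up to 48.8% in a single library.

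GNE, the bifunctional enzyme that opens sialic acid synthesis from UDP-GlcNAc, was the other gene whose LOW and CON libraries did not overlap. Its FPKM (chromosome 2 from 51989342 to 52042116) was 10.4, 8.47 and 7.63 in CON, 7.57, 7.17 and 6.81 in LOW and 8.61, 8.61 and 7.29 in HIGH. The highest LOW value was just under the lowest CON value, and in the FPKM as deposited they overlapped, at 7.50 and 7.45. LOW versus CON gave a log2 fold change of -0.28 (SE 0.15, limma adjusted p = 1), with an interval of the fold from 0.654 to 1.03. It was -0.16 without CON replicate 1 and -0.38 without CON replicate 3. In HIGH versus CON it was -0.10 (SE 0.15).

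The transcripts of GNE differed in 1 library, which was chosen for mention after its values were seen. GNE-201, the longer form, had an FPKM of 10.2, 8.26 and 3.83 in CON, 6.74, 6.98 and 6.78 in LOW and 8.51, 8.55 and 7.10 in HIGH. GNE-202, a shorter form inside the same locus, took 47.8% of the gene in CON replicate 3, with an FPKM of 3.51, and at most 0.87 elsewhere. For GNE-201 alone the log2 fold change in LOW versus CON was -0.01 (SE 0.31), and its CON and LOW libraries overlapped.

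**Figure D3:**
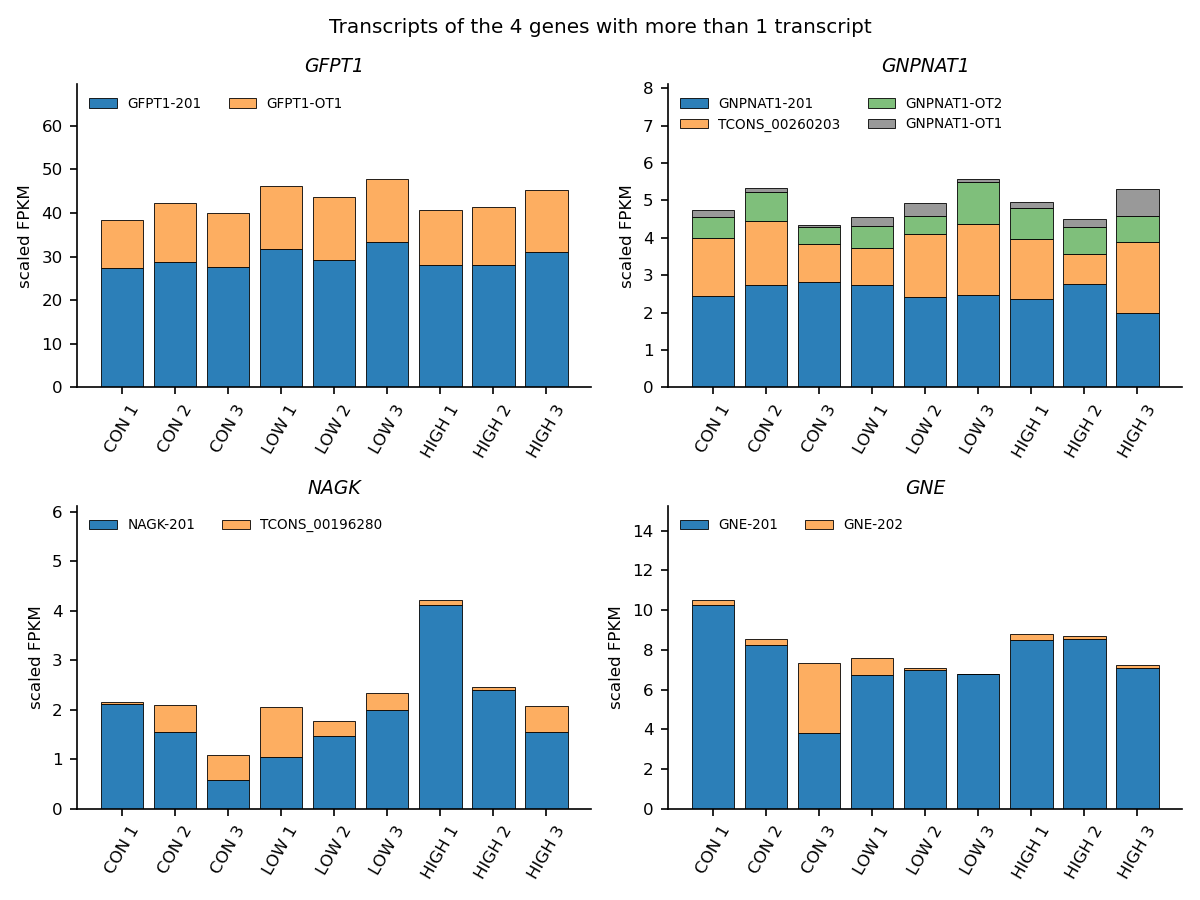
Scaled FPKM (y axis, starting at 0) of each transcript, stacked, in the 9 libraries (x axis) for the 4 of 8 genes with more than 1 transcript in the transcript table. The division of GFPT1 was alike in all libraries, GNE-202 reached 47.8% of GNE in CON replicate 3, and the assembled NAGK transcript reached 48.8% in LOW replicate 1.

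The 8 genes fell into 2 kinds by how they followed the balance of short and long genes. In a limma model with group and this difference as terms, the slope, in log2 units of FPKM per log2 unit of the difference, was -1.61 for PGM3, -1.20 for NAGK, -1.07 for GFPT2, -0.51 for GNE and -0.45 for OGT. It was 0.30 for UAP1, 0.19 for GFPT1 and 0.05 for GNPNAT1. The slope had an adjusted p under 0.05 in 5 of 8 genes, beside 42.7% of all genes tested, and for OGA it was -2.79. The difference was computed from the same libraries, although none of the 8 genes entered it. The negative slopes belonged to genes of 9777 to 52775 bases in span and the others to genes of 26894 to 119569 bases, so the span of a gene did not separate both kinds.

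**Figure D4:**
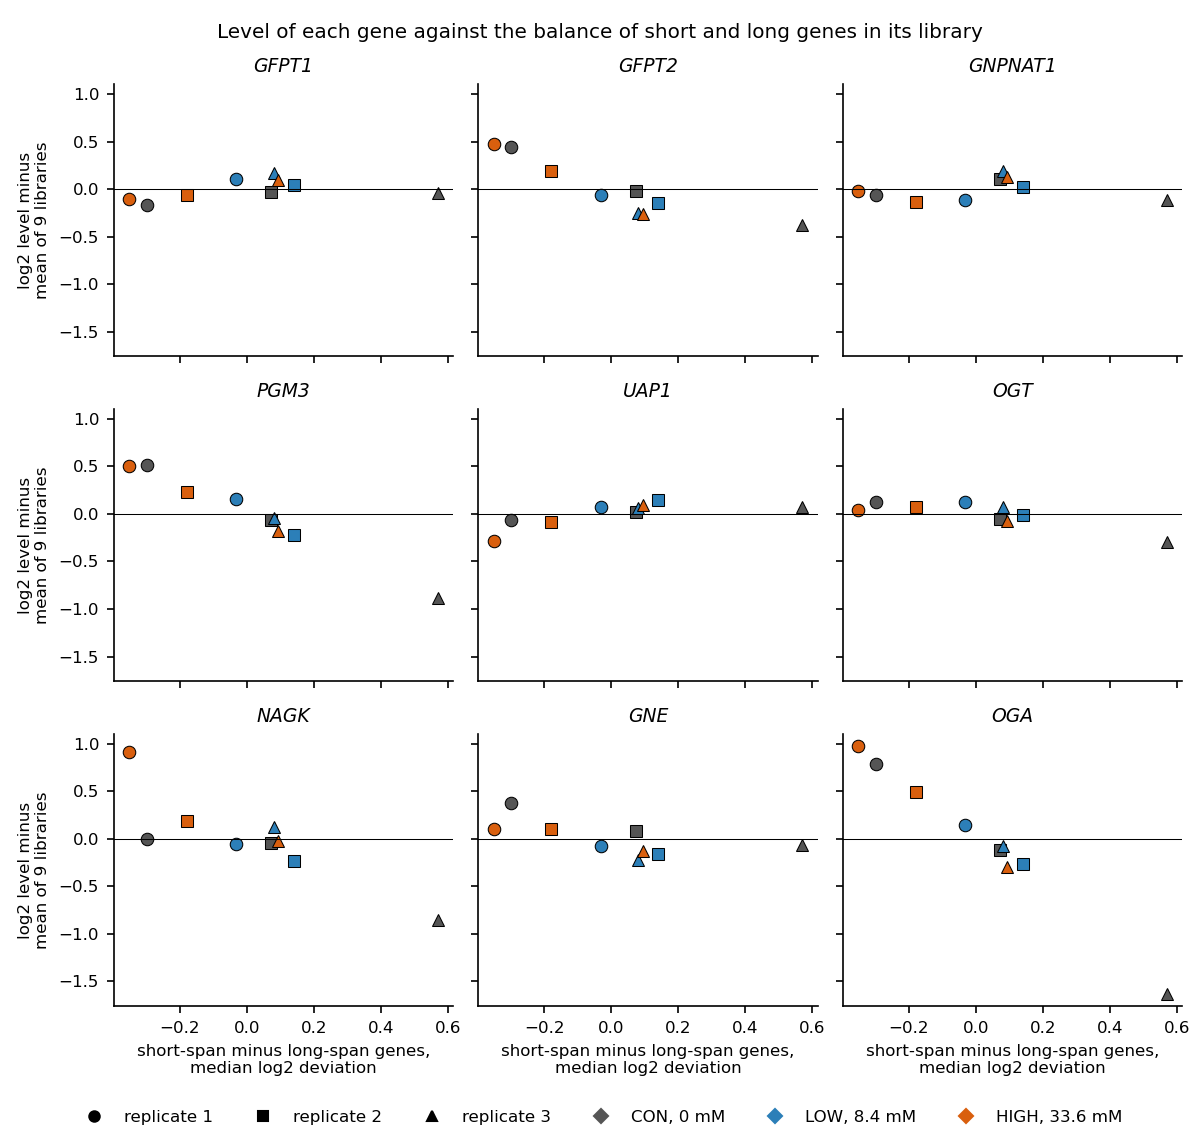
Log2 level of each gene minus its mean over the 9 libraries (y axis) against the median log2 deviation of short-span minus long-span genes in the same library (x axis). Colour is the glucose group and shape the replicate number; PGM3, GFPT2, NAGK and OGA fall from left to right across all groups, with CON replicate 3 at the right end and HIGH replicate 1 at the left, while GFPT1, GNPNAT1 and UAP1 stay within a narrow band.

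With the difference between short and long genes as a covariate, an alternative chosen after seeing the data, the spread left over was smaller and the counts were higher, among the 8 genes and among all genes. At an unadjusted p under 0.05 they were 3 of 8 in LOW versus CON (6.6% of all genes), 1 of 8 in HIGH versus CON (9.24%), 1 of 8 in HIGH versus LOW (14%) and 3 of 8 for glucose versus CON (6.32%). GFPT1 was higher in LOW by a log2 fold change of 0.20 (SE 0.06, limma adjusted p = 0.71), GFPT2 was lower in LOW at -0.22 (SE 0.09, adjusted p = 0.741), and GNE was lower than in CON both in LOW at -0.31 (SE 0.07, adjusted p = 0.573) and in HIGH at -0.24 (SE 0.08, adjusted p = 0.431). OGT was lower in HIGH than in LOW, at -0.15 (SE 0.06, limma adjusted p = 0.315). The smallest adjusted p-values of a member in the 4 contrasts were 0.573, 0.431, 0.315 and 0.57, so 0 of 8 genes passed the call here too, beside 0.0164%, 0.0246%, 0.0164% and 0.0246% of all genes. PGM3 in HIGH versus CON moved from 0.33 to -0.09, NAGK from 0.66 to 0.34 and OGA from 0.71 to -0.02. In the covariate HIGH replicates 1 and 2 lay below every LOW library and below CON replicates 2 and 3. The covariate can therefore also take up part of a difference between groups.

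The pattern of each gene over the 9 libraries was set against that of 11361 other tested genes with a symbol. This is a description over 9 libraries that differ in depth and in their balance of short and long genes. By Pearson r of log2 levels, the most alike to PGM3 were RABGAP1 (0.998) and DDX6 (0.998), to GFPT2 CLASP1 (0.991) and KARS (0.985), to OGT PDCD4 (0.987) and DCP1A (0.983), and to GNE KIF24 (0.984) and GCDH (0.981). For NAGK they were CDA (0.976) and USP49 (0.956), for UAP1 EFEMP1 (0.969) and ME2 (0.965), for GNPNAT1 CAPS2 (0.941) and ACSBG1 (0.93), and for GFPT1 RAB3A (0.933) and WSB1 (0.925). The steady genes GFPT1 and GNPNAT1 had the lower values.

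Around the 8 genes, 53 symbols in 5 lists name genes that supply, recycle or use the pathway's sugars or act with OGT, with OGA listed under its older symbol MGEA5 as well. Of these symbols 43 were found and 41 genes were tested, and 0 of 41 passed the call in each of the 4 contrasts (0.00821% to 0.0246% of all genes). At an unadjusted p under 0.05 there were 0 of 41 in LOW versus CON (1.83% of all genes), 5 of 41 or 12.2% in HIGH versus CON (6.74%), 8 of 41 or 19.5% in HIGH versus LOW (7.63%) and 0 of 41 for glucose versus CON (2.65%). The groups did not overlap for 2 of 41 (4.88%) in LOW versus CON, against 6.08% of all genes, for 3 of 41 (7.32%) in HIGH versus CON, against 9.38%, for 17 of 41 (41.5%) in HIGH versus LOW, against 18.9%, and for 1 of 41 (2.44%) in glucose versus CON, against 1.41%. Leaving out 1 library moved these counts widely: the 5 became 17 without CON replicate 1, 9 without HIGH replicate 3, 1 without HIGH replicate 1 or 2, and 2 without any one of the others, and the 8 became 13 without HIGH replicate 3, 12 without CON replicate 3, 3 without HIGH replicate 1 or LOW replicate 3, 4 without HIGH replicate 2 or LOW replicate 1 and 5 without LOW replicate 2. In LOW versus CON the 0 became 4 without CON replicate 1 and 2 without CON replicate 3, and for glucose versus CON it became 9 without CON replicate 1 and 1 without HIGH replicate 3.

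Among the 19 tested genes that use UDP-GlcNAc, HAS2, the hyaluronan synthase of the expanding cumulus, had the largest log2 fold change in HIGH versus CON. Its FPKM was 0.69, 0.72 and 1.16 in CON, 0.73, 0.96 and 0.86 in LOW and 0.52, 0.38 and 0.44 in HIGH. All HIGH libraries were below all others, and this log2 fold change was -0.78 (SE 0.26, limma adjusted p = 0.65), a difference that did not pass the call. The slope of HAS2 on the balance of short and long genes was 0.61, and with that term in the model the value was -0.62 (limma adjusted p = 0.433).

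Other genes of this list had an unadjusted p under 0.05 in HIGH, in both directions. DPAGT1, which starts the lipid-linked N-glycan precursor, was at 0.45 in HIGH versus LOW (SE 0.16), and EXTL3, a heparan sulfate initiating enzyme, at 0.59 in HIGH versus CON (SE 0.19) and 0.56 versus LOW (SE 0.19). SLC35A3, the Golgi transporter of UDP-GlcNAc, differed in the other direction, at -0.36 in HIGH versus LOW (SE 0.14), with all HIGH libraries (13.3 to 16.3) below all LOW libraries (18.3 to 19.5). None of the adjusted p-values of these genes was below 0.605. The 2 members of the list with the highest levels were EXT2, a heparan sulfate polymerase (mean FPKM 59.8), and MGAT2, which builds complex N-glycans (41.6), and neither had an unadjusted p under 0.05.

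Of the 8 genes that supply substrates, HK2, a hexokinase, had an unadjusted p under 0.05 in HIGH versus LOW. Its FPKM was 4.88, 2.71 and 1.49 in CON, 2.47, 1.87 and 2.05 in LOW and 9.44, 4.47 and 2.64 in HIGH. The log2 fold change was 1.15 (SE 0.48, limma adjusted p = 0.631) and 0.67 with the term for short and long genes, on which the slope of HK2 was -2.31. SLC38A2, an amino acid transporter that carries glutamine, had the highest level of the list. Its FPKM was 198, 198 and 204 in CON, 215, 211 and 213 in LOW and 219, 228 and 253 in HIGH. No group overlapped another, but its log2 fold change in HIGH versus CON was 0.22 (SE 0.12, adjusted p = 0.65). GPI, the isomerase that makes fructose-6-phosphate, followed it, at a log2 fold change of 0.28 in HIGH versus CON (SE 0.15).

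Of the 5 tested genes of turnover and salvage, HEXA, a lysosomal hexosaminidase subunit, had means of 38.8, 36.5 and 30.2 and a log2 fold change of -0.35 in HIGH versus CON (SE 0.15). GNPDA2, which runs the entry step backwards toward fructose-6-phosphate, was at -0.36 in HIGH versus LOW (SE 0.15), and NAGLU, a lysosomal glucosaminidase, had no unadjusted p under 0.05. In the sialic acid branch 0 of 4 genes had one, and NANS and SLC35A1, its most abundant members, had means of 28.1 and 19.7 over all libraries. Of 5 tested partners of OGT, TET3, a methylcytosine dioxygenase, was at 0.68 in HIGH versus CON (SE 0.30) and 0.88 in HIGH versus LOW (SE 0.30), with a slope of -1.30 on the balance of short and long genes. TRAK2 and TET2, the most abundant of them, had no unadjusted p under 0.05. With the term for short and long genes in the model, the HIGH versus CON value of HEXA was -0.19 and that of TET3 was 0.35. HEXA and GNPDA2 had adjusted p-values of 0.65 and 0.631 in these contrasts, and TET3 of 0.65 and 0.605 (limma).

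**Figure D5:**
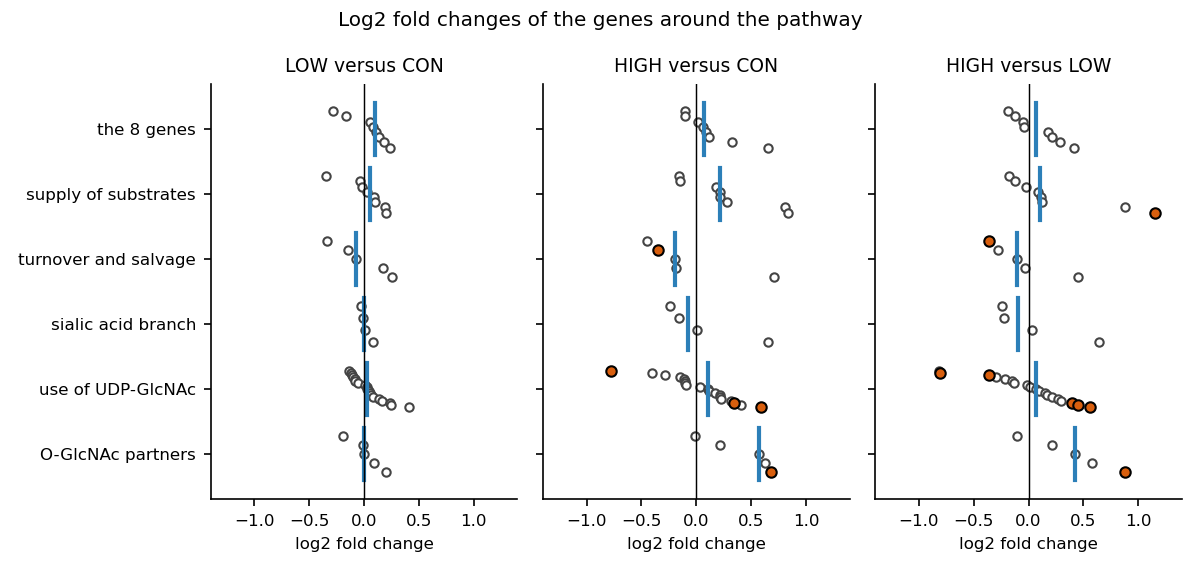
Log2 fold changes (x axis) of the 8 genes and of the tested genes of the 5 lists around the pathway (rows), 1 point a gene, in the 3 contrasts between groups of 3 libraries. Filled points have an unadjusted limma p under 0.05, vertical bars are list medians, and no gene passed the call.

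Markers of cell types differed in both directions in HIGH versus CON, where 6.74% of all genes had an unadjusted p under 0.05. Of 10 stromal and smooth muscle markers 3 were higher at that threshold (COL1A1, COL1A2 and PDGFRA, at log2 fold changes of 1.54, 0.79 and 0.74) and 0 were lower. The others of this list went both ways. MYH11 was at 0.83, COL3A1 at 0.30 and LUM at 0.004, while TAGLN was at -0.50, DES at -0.21, ACTA2 at -0.13 and DCN at -0.10. Of 10 granulosa markers 3 were lower (INHA, CYP11A1 and KRT8, at -0.55, -0.33 and -0.79) and 0 were higher, with GATA4 at 0.44. In HIGH versus LOW GATA4 was at 0.70, with an unadjusted p under 0.05. Of 5 leukocyte markers 2 were lower, CD68 at -0.52 and AIF1 at -1.25. The others did not pass that threshold and had values above 0, PTPRC at 1.05, CD3E at 0.35 and CD14 at 0.01. The summed FPKM of this list lay between 14.7 and 21.9 in all libraries. Several markers also followed the balance of short and long genes. The slopes were -1.68 for COL1A1, -0.98 for COL1A2, -1.21 for PDGFRA, 0.92 for INHA, 0.29 for CYP11A1 and 1.22 for KRT8. With that term in the model their values in HIGH versus CON were 1.10, 0.53, 0.43, -0.31, -0.26 and -0.48, in the same order. Without it the adjusted p-values of the markers in HIGH versus CON were 0.65 or more (limma). Whether the cell types of these markers have a part in the values of NAGK, HAS2, EXTL3 or TET3 in HIGH was not tested.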

How the data were processed

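Gene and transcript tables of 9 RNA-seq libraries from ribosomal RNA-depleted total RNA were used. The submitters' processing notes and the study's methods name HISAT2 for alignment, with STAR 2.5.1b and TopHat2 also listed, and HTSeq 0.6.0 for counting; the genome build is not given in the sources used here. The authors calculated FPKM from read counts and gene length and deposited these values. The deposited count tables were treated as a score. For 100% of the checked values above 200, they equal FPKM times genomic span times 1 factor per library within 3%. The check covered transcripts, and genes with a single transcript, outside unnamed Ensembl genes. Genes with several transcripts were not checked as genes. The tables were therefore taken to hold no independent counts, and a count model, as in the study (DESeq2), was not fitted. The total of these tables is not a depth.

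FPKM values were divided by a factor per library. It was the library's median over 11416 genes with an FPKM of 1 or more in every library. This median was set relative to the mean of the 9 library medians on the log2 scale. Genes that reached an FPKM of 0.1 in 3 or more libraries, and whose span was not under 300 bases, were tested with limma 3.58.1 in R 4.3.3 on log2(FPKM + 0.1), which understates changes of low genes, with 3 groups, an intensity trend, two-sided tests and Benjamini-Hochberg adjustment over all 24365 genes. A call needed both an absolute log2 fold change above 1 and an adjusted p under 0.05. The script was tested on simulated data with large planted changes. Their recovery was required only at reduced noise, so the test does not measure power at the spread of these libraries. In the transcript table, unnamed Ensembl transcripts were on another scale and were rescaled first.

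The members and lists were chosen with earlier results of these data known. The text names all members, TXNIP, list genes called, at an unadjusted p under 0.05 or among the 2 highest of their list, the 2 genes most alike to each member, and transcripts with 10% or more of a member's FPKM. The values of 1 list gene that the rule names are not reported here. Alternatives were other pseudocounts, filters and scalings, fewer groups, a replicate block, and leaving out each library.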

Additional observations from a re-analysis of the deposited data

How the results depend on the processing

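Every one of the 16 or 17 alternatives to each contrast left 0 of 8 genes and 0 of 41 list genes past the call, and the smallest adjusted p of a member in any of them was 0.183. The 536 values recomputed for the 8 genes held 34 changes of sign, all between values that were not called, the largest of them from a log2 fold change of 0.33; the cause was not tested. Without scaling, GNPNAT1 became -0.046 in LOW versus CON, -0.024 in HIGH versus CON, 0.022 in HIGH versus LOW and -0.035 for glucose versus CON, UAP1 -0.021 in LOW versus CON and OGT 0.012 in HIGH versus LOW; the median of all genes in LOW versus CON was then -0.09, beside 0.01 with scaling. With the balance of short and long genes as a covariate (chosen after seeing the data), GFPT2 became -0.16, PGM3 -0.088 and OGT -0.033 in HIGH versus CON, PGM3 -0.12 in HIGH versus LOW, and PGM3 -0.029 and UAP1 0.038 for glucose versus CON. Leaving out 1 library gave, in LOW versus CON, -0.36 to 0.048 for GFPT2, -0.020 to 0.13 for GNPNAT1, -0.26 to 0.44 for PGM3 and -0.035 to 0.39 for NAGK; in HIGH versus CON, -0.075 to 0.33 for GFPT2, -0.051 to 0.081 for GNPNAT1, -0.039 to 0.66 for PGM3, -0.025 to 0.19 for OGT and -0.20 to 0.019 for GNE; in HIGH versus LOW, -0.11 to 0.037 for GNPNAT1; and for glucose versus CON, -0.22 to 0.19 for GFPT2, -0.0065 to 0.10 for GNPNAT1, -0.15 to 0.55 for PGM3 and -0.054 to 0.039 for UAP1. Genes called among all tested were 2 in LOW versus CON (1 to 5 over the alternatives), 2 in HIGH versus CON (1 to 8), 2 in HIGH versus LOW (1 to 6) and 6 for glucose versus CON (2 to 6). The 0, 5, 8 and 0 list genes with an unadjusted p under 0.05 ran from 0 to 4, 1 to 17, 3 to 14 and 0 to 9. Libraries with the same replicate number correlated in their deviations from the group means at 0.18 to 0.42 for number 1, -0.03 to 0.01 for number 2 and 0.09 to 0.42 for number 3. Libraries of number 1 and number 3 from different groups correlated at -0.44 to -0.08. In each group replicate 1 also had the lowest difference between short and long genes. Nothing states what the numbers stand for, and whether they mark a shared batch or pairing was not tested. The main fit held no block. With the number as a replicate block 0 of 8 genes were called, and 4, 4, 2 and 5 of all genes in the same order. In that fit 10 list genes in HIGH versus CON and 12 in HIGH versus LOW had an unadjusted p under 0.05. So did NAGK in HIGH versus CON and GNE in LOW versus CON. The count-based tests planned as alternatives were not run, since the deposited tables were taken to hold no counts.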
